A study of Mus musculus with 18 samples.

Results

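Among 9 parthenogenetic 2-cell mouse embryos, the 3 richest in maternal transcripts (embryos 5, 8 and 2) were set against the 3 poorest (embryos 9, 7 and 1). The members were selected on measured values. The log2 signals of 18 maternal genes (Zp1, Zp2, Zp3, Gdf9, Bmp15, Nlrp5, Nlrp14, Nlrp4f, Ooep, Tle6, Khdc3, Padi6, Zar1, Oosp1, Npm2, Dppa3, Mos and Btg4) were averaged over both sister blastomeres of an embryo, and this score ranked the embryos. The comparison therefore used 6 of 9 embryos and 12 of 18 blastomeres, with embryos 3, 10 and 4 in the middle. Rich and poor are not conditions of the study, since all embryos had the same treatment and the labels set no groups other than the blastomere pairs.

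The study asked how alike the sister cells of the first division are. All embryos came from metaphase II oocytes of superovulated B6C3F1 mice, a first-generation cross of C57BL/6 with C3H, activated in SrCl2 with latrunculin, which retains the polar body chromosomes, and therefore had no sperm-derived genome. They were grown in KSOM(aa) medium for 1 day after activation, bisected as 2-cell embryos, and each blastomere was lysed and run on its own Affymetrix Mouse Transcriptome Array 1.0. Sisters share an oocyte, so the embryo was the replicate, with n = 3 rich and 3 poor embryos.

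A mouse oocyte stores the mRNAs and proteins that carry it through maturation and the first division. Around the 2-cell stage most of these maternal transcripts are degraded while the embryonic genome is switched on. The maternal products include the zona pellucida coat, growth factors that the oocyte sends to its follicle cells, and the subcortical maternal complex, a protein assembly under the membrane that early mouse embryos need for cleavage.

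The deposited log2 signals were normalized so that the arrays had like distributions, which means that rich and poor are relative terms and total RNA per blastomere is not visible. A difference of 1 log2 unit is a 2-fold difference. The spread of an array, taken as the interquartile range of each gene's deviation from its median over arrays, was 0.55 to 0.835 in blastomeres of rich embryos, 0.575 to 0.67 in those of middle embryos and 0.62 to 0.815 in those of poor embryos. Array medians were 4.86 to 5.08 in rich and 4.96 to 5.26 in poor embryos, with the highest in blastomere 1a. Of 19 measured cumulus and granulosa markers, 15 were at or below the background level of 5.80, and the other 4 (Amhr2, Has2, Snap91 and Nr5a2) averaged 6.57 to 6.89 in rich and 7.02 to 7.46 in poor embryos. All 4 read lower in rich embryos. Nr5a2, which is also among the epiblast and pluripotency regulators below, differed most (9.15 in rich and 10.36 in poor embryos). Snap91, close to the background level, differed by -0.35. The part of follicle cells in the results was not tested.

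The score was 12.75, 12.53 and 12.26 in rich embryos 5, 8 and 2, against 11.57, 11.52 and 11.42 in poor embryos 9, 7 and 1. The means were 12.52 ± 0.24 in rich and 11.50 ± 0.08 in poor embryos (SD, n = 3 each), which the selection itself sets. The boundaries were narrow, since rich embryo 2 (12.26) lay 0.20 above the nearest middle embryo 3 (12.06), and poor embryo 9 (11.57) lay 0.27 below middle embryo 4 (11.85). Both sisters of each rich embryo scored above both sisters of every other embryo, so embryos 5, 8 and 2 held ranks 1 to 3 in sisters a and again in sisters b. The poor side was less even. Blastomere 1a had the lowest score of all, 11.05, and its sister 1b had 11.79, whereas sisters 8a and 8b both had 12.53. Scores of the sisters followed each other over the 9 embryos (Pearson's r = 0.774, Spearman's rho = 0.85, given as a description).

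**Figure D1:**
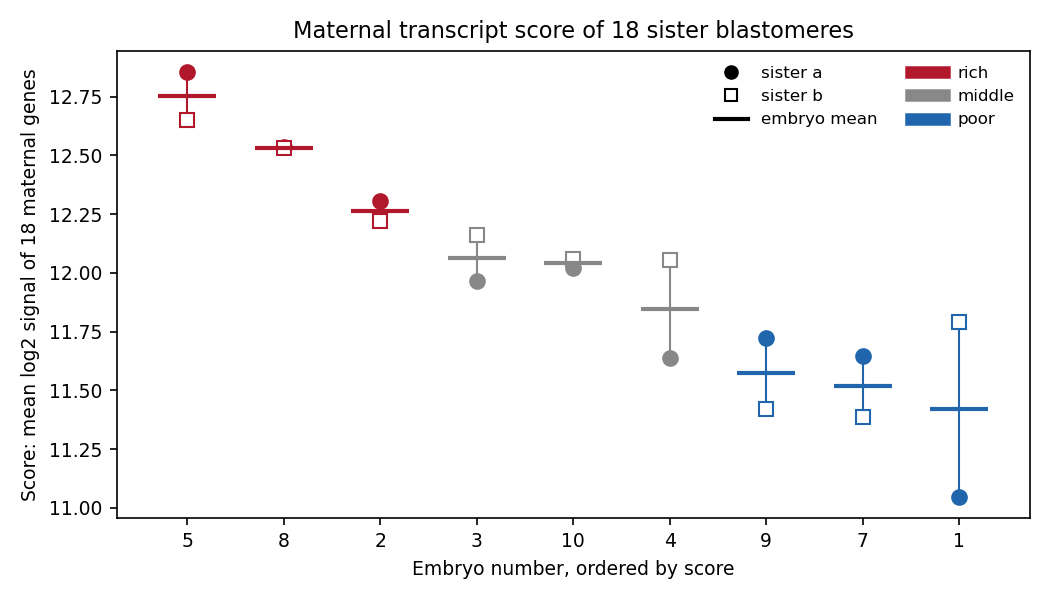
Maternal transcript score, the mean log2 signal of 18 genes, of each blastomere (circle, sister a, square, sister b) and the mean of each embryo (bar), with embryos in order of the score. The 6 blastomeres of rich embryos lie above all others, and the sisters of embryo 1 are the farthest apart (11.05 and 11.79).

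The genes that chose the embryos are described with no test. All 18 read higher in rich than in poor embryos, with a median difference of 1.04, and for 13 of them the 3 rich embryos lay above the 3 poor ones. Only Nlrp4f, Ooep, Zar1 and Npm2 kept all 6 blastomeres of rich embryos above all 6 of poor embryos. No single gene decided the ranking, because leaving out any 1 of the 18 gave the same rich and poor embryos.

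Zar1, a zygote arrest protein that binds mRNA and is needed for the passage from oocyte to embryo, had the widest difference. Its signal was 12.91, 13.64, 13.93, 12.55, 12.51 and 13.50 in blastomeres 5a, 5b, 8a, 8b, 2a and 2b, against 11.30, 9.34, 10.52, 10.85, 10.65 and 12.06 in 9a, 9b, 7a, 7b, 1a and 1b. Embryo means were 13.17 ± 0.15 in rich and 10.79 ± 0.52 in poor embryos (SD, n = 3), a difference of 2.39. The sisters of a rich embryo could still differ by more than 1 unit, as 8a and 8b did, without reaching the poor range.

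Nlrp4f, Npm2 and Oosp1 are the defining markers of maternal transcripts here. Nlrp4f, a member of the subcortical maternal complex, read 16.73, 16.42, 16.13, 16.28, 15.96 and 16.07 in the rich blastomeres (in the order above), against 14.86, 14.94, 13.60, 13.34, 14.39 and 14.85 in the poor ones, a difference of 1.94. Npm2, the oocyte's nucleoplasmin, a histone chaperone, read 14.29, 14.40, 14.00, 13.85, 13.70 and 13.86 in rich blastomeres, against 12.31, 11.99, 12.74, 12.34, 11.86 and 12.69 in poor ones, a difference of 1.70. Npm2 also followed the mean of the other 17 score genes most closely over the 9 embryos (r = 0.967, a description). Oosp1, an oocyte-secreted protein, was bright everywhere. Its embryo means were 17.07, 16.95 and 16.63 in rich embryos 5, 8 and 2, against 16.39, 16.16 and 16.70 in poor embryos 9, 7 and 1, and poor embryo 1 overlapped the rich range. All 3 markers were above 11.8 in all 18 blastomeres, poor ones included, so a poor embryo had less of these transcripts relative to the rest of its array and did not lack them.

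The other members of the subcortical maternal complex were uneven. Ooep, its small RNA-binding-domain subunit, averaged 9.02 ± 0.32 in rich and 7.76 ± 0.15 in poor embryos, Nlrp5 (Mater) 12.73 ± 0.16 and 11.77 ± 0.67, and Padi6, a peptidylarginine deiminase of oocyte lattices, 10.32 ± 0.47 and 9.21 ± 0.27. Khdc3 (Filia) averaged 8.53 ± 0.15 in rich and 7.31 ± 1.04 in poor embryos and overlapped, because poor embryo 7 read 8.51. Tle6 averaged 7.78 ± 0.65 in rich and 7.62 ± 0.68 in poor embryos, a difference of 0.16 that lay well within the spread of the embryos. Nlrp14, another oocyte member of the NLRP family, averaged 14.43 ± 0.53 in rich and 13.41 ± 0.23 in poor embryos.

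The 3 zona pellucida genes read higher by similar amounts, Zp1 by 1.28, Zp2 by 1.02 and Zp3 by 1.06, and the 3 rich embryos were above the poor ones for each. Zp3 varied most between sisters, at 6.84 in 1a and 11.10 in 1b, and followed the other score genes least (r = 0.286). The growth factors of the oocyte differed little, with Bmp15 at 17.62 ± 0.09 in rich and 17.23 ± 0.34 in poor embryos and Gdf9 at 7.93 ± 0.15 and 7.72 ± 0.06. Dppa3 (Stella), which protects maternal DNA methylation in mice, differed by 0.53. Mos, the kinase that holds the oocyte in metaphase, averaged 6.34 ± 1.36 in rich and 4.96 ± 0.34 in poor embryos, with an overall mean of 5.64 below the background level. Btg4, the adaptor that brings deadenylases to maternal mRNA, was nearly flat at 17.24 ± 0.02 in rich and 17.11 ± 0.07 in poor embryos.

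**Figure D2:**
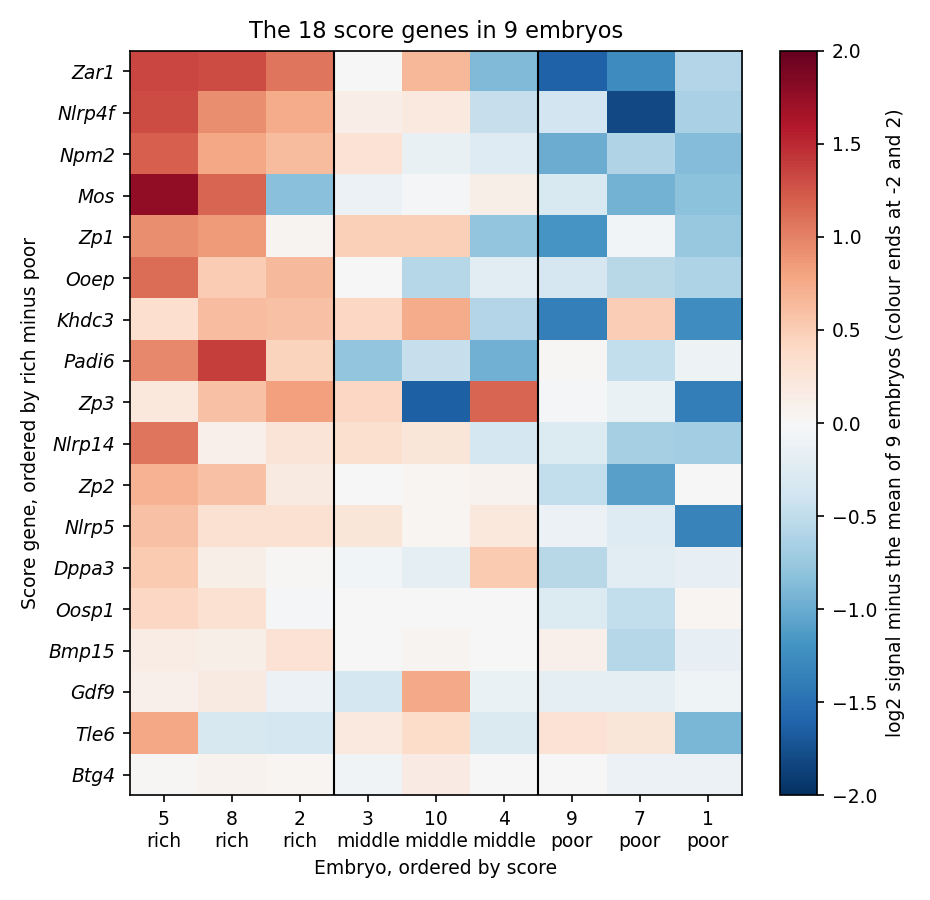
Signal of the 18 score genes (rows, ordered by rich minus poor) in the 9 embryos (columns, ordered by score), each as the log2 signal minus the gene's mean over 9 embryos. Zar1, Nlrp4f and Npm2 separate rich from poor embryos by 2.39, 1.94 and 1.70, whereas Btg4 differs by 0.13.

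Promoters of the 3 blastomere-separating score genes that the RefSeq promoter table holds, and of Kpna7, the oocyte gene outside the score that differed most, are printed to show what stands before genes whose transcripts varied together. Each runs 5′ to 3′ over 300 bases, 250 before and 50 after the gene's start, on GRCm38.p6, and all 4 genes lie on the minus strand. Capitals mark E-box matches (CANNTG, the letters bound by helix-loop-helix factors such as the oocyte's Figla) and homeobox core matches (TAATTG) on either strand.
Nlrp4f, chr13:65205667-65205966: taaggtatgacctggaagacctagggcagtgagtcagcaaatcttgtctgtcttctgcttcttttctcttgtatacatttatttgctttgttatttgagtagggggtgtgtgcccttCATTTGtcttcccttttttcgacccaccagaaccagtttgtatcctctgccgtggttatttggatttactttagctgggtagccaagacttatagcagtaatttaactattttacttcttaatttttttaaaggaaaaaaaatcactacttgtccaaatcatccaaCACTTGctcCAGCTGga
Ooep, chr9:78378539-78378838: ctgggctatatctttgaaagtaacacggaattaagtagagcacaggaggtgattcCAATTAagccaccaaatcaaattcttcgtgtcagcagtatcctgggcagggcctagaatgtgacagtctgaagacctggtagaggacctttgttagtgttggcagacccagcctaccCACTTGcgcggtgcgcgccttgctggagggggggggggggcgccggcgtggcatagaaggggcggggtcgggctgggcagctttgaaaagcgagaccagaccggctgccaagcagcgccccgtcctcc
Zar1, chr5:72581035-72581334: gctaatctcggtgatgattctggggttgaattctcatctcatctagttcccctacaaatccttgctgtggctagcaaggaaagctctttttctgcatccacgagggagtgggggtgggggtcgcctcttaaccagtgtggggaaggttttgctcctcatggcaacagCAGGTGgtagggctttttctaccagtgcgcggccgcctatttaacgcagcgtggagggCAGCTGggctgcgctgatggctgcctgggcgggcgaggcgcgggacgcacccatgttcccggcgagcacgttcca
Kpna7, chr5:145009587-145009886: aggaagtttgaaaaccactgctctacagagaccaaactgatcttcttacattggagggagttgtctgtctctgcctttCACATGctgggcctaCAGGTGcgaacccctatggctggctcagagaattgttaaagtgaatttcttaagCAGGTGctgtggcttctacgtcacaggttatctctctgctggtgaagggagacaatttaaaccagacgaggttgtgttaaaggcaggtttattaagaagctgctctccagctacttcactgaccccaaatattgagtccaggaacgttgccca
All 11 score genes with a promoter in the table held CANNTG, and so did 72.2% of the 27025 promoters counted and 64.2% of the 7550 found for genes tested. For TAATTG the counts were 2 of 11 score genes (Ooep and Padi6), 7 of 41 oocyte genes outside the score (17.1%), 8.15% of all promoters counted and 5.29% of those of genes tested. The 1002 promoters of genes higher in rich embryos without overlap held CANNTG in 65.4% and TAATTG in 5.29%, and the 701 of genes lower without overlap held them in 62.2% and 5.14%, close to the shares of all genes tested. These are matches of letters in a window, not bound sites.

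Outside the score, no gene of 12864 tested passed limma at an adjusted p under 0.05 (0% called), and the smallest adjusted p was 0.161. At an unadjusted p under 0.05, 1152 genes read higher in rich embryos (8.96%) and 672 read lower (5.22%). Counted without a test, the 3 rich embryos lay above the 3 poor ones for 1501 genes (11.7%) and below them for 1287 (10%). All 12 blastomeres separated for 202 genes higher and 133 lower in rich embryos. These values describe what else varied with the score on the same arrays. A fit of the score as a number over all 9 embryos called 27 genes higher and 8 lower with the score, among them Zup1, Cdk5, Cd63 and Tigar (limma, adjusted p = 0.038 for each).

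Oocyte genes outside the score mostly read higher in rich embryos. Of 49 genes measured, 45 were above background and tested, 39 had a positive difference and 6 a negative one, and the median was 0.49, beside 0.04 over all genes tested. The 3 rich embryos lay above the poor ones for 18 of 45 (40.0%, beside 11.7% of all genes) and below them for 2 (4.44%, beside 10%). The 18 include Nlrp4a, Nlrp4b, Nlrp9b, Nlrp9c, Tcl1b1, Tcl1b2 and Tcl1b3, members of clustered families, so they are not all separate measurements. Near-identical copies can share probe signal, and the score gene Nlrp4f is of the same family as the Nlrp members. None of the 45 passed limma after adjustment. The members were bright, 31 of them among the brightest 3216 genes tested, of which 16.9% were higher in rich embryos without overlap and 8.8% were lower. Measured in each sister alone, the median was 0.64 in sisters a and 0.40 in sisters b, and 37 of 45 genes were positive in both. Leaving out 1 embryo at a time gave medians of 0.33 (without embryo 5) to 0.58 (without embryo 2). The list had been chosen with results of these data known.

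Kpna7, the oocyte's importin alpha, read 11.84, 12.11, 12.15, 11.88, 11.86 and 12.08 in blastomeres 5a, 5b, 8a, 8b, 2a and 2b, against 10.83, 8.88, 7.40, 7.51, 9.27 and 10.03 in 9a, 9b, 7a, 7b, 1a and 1b. The rich blastomeres stayed between 11.84 and 12.15, whereas the poor ones spread from 7.40 to 10.83. The difference was 3.00 ± 0.61 (SE; limma, adjusted p = 0.173). Oas1d, an oocyte member of the oligoadenylate synthetase family, averaged 12.94 ± 0.47 in rich and 10.45 ± 1.38 in poor embryos (SD), a difference of 2.48 ± 0.71 (SE; limma, adjusted p = 0.219). H1f8, the oocyte linker histone, averaged 13.00 in rich and 10.90 in poor embryos, and Nobox, a homeobox factor of oocytes, 10.15 and 8.15. These 4 genes differed by 2 units or more, as much as the widest score genes.

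The NLRP family members outside the score leaned one way. All 8 Nlrp4 and Nlrp9 genes tested read higher in rich embryos, by 0.53 to 1.54, and 5 did not overlap. Beside them, 11.7% of all genes and 16.9% of the brightest 3216 were higher in rich embryos without overlap. Nlrp9c read 14.84, 14.52 and 14.43 in rich embryos 5, 8 and 2, against 13.39, 13.43 and 13.26 in poor embryos 9, 7 and 1, and Nlrp9b read 15.03, 14.64 and 14.56 against 13.38, 12.38 and 13.84. Near-identical copies in this family, which includes the score gene Nlrp4f, can share probe signal, so its members are not separate measurements. The 6 Tcl1 genes, oocyte proteins of a clustered family, also read higher in all cases but by only 0.08 to 0.40, at a mean signal of 17.61 in rich and 17.34 in poor embryos. Uchl1, an abundant deubiquitinase of oocytes, averaged 15.21 ± 0.31 in rich and 13.86 ± 0.20 in poor embryos, with no overlap among the 12 blastomeres.

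Of the DNA methylation and imprint protection genes, Uhrf1 and Dnmt1, which copy methylation at replication, averaged 10.07 in rich and 8.74 in poor embryos and 10.12 and 9.34. Tet3, the oxidase of the paternal genome in zygotes, read 13.90, 13.80 and 13.31 in rich embryos, against 12.79, 11.08 and 13.00 in poor ones. Trim28, a maternal corepressor of imprinted loci, went the other way at 8.59, 8.80 and 7.83 in rich embryos 5, 8 and 2, against 9.16, 10.29 and 9.58 in poor embryos 9, 7 and 1. Over the 18 genes of this list the median was 0.06, with 3 higher (16.7%) and 2 lower (11.1%) without overlap, beside 11.7% and 10% of all genes. Trim28 and the mismatch repair gene Pms2 (7.37 in rich and 8.89 in poor embryos on average) were the 2 maternal genes that read lower in rich embryos without overlap.

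**Figure D3:**
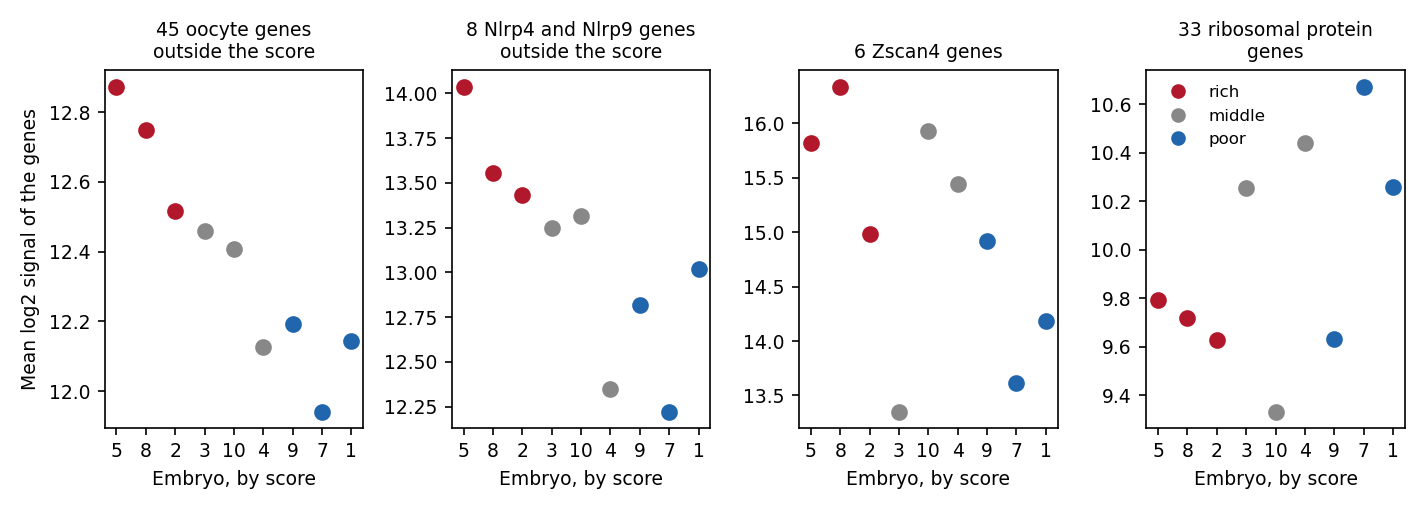
Mean log2 signal of 4 gene groups in each of the 9 embryos, ordered by score (red, rich, grey, middle, blue, poor). The 45 oocyte genes outside the score run from 12.87 in embryo 5 to 11.94 in embryo 7, the Zscan4 genes are lowest in middle embryo 3 (13.35), and the ribosomal protein genes of poor embryo 9 (9.63) lie among the rich embryos.

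Genes that handle stored and decaying mRNA had medians close to that of all genes. Of 31 factors of mRNA storage and polyadenylation, 4 were higher in rich embryos without overlap (12.9%, near the 11.7% of all genes) and 0 lower (beside 10%), with a median of 0.10. Pabpc1l, the oocyte's poly(A)-binding protein, averaged 7.77 ± 0.18 in rich and 6.44 ± 0.08 in poor embryos, and all 12 blastomeres separated. Ybx3, a cold-shock RNA-binding protein, averaged 15.35 in rich and 14.23 in poor embryos. Pabpc1, the poly(A)-binding protein of somatic cells, read 9.89, 11.82 and 10.73 in rich embryos, against 11.18, 12.90 and 12.21 in poor ones, and overlapped. Of 23 genes of mRNA decay, 3 were higher and 3 lower without overlap (13.0% each way) and the median was 0.11. The decapping cofactor Dcp1a (12.55 in rich and 10.93 in poor embryos) and Pabpn1l, the partner of Btg4 (7.13 and 5.85), read higher, whereas the deadenylase subunits Cnot6 (11.24 and 12.04) and Cnot10 (6.42 and 7.81) read lower.

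Genes of embryonic genome activation at the 2-cell stage split. Of 40 tested, 8 were higher (20.0%) and 7 lower (17.5%) in rich embryos without overlap, beside 11.7% and 10% of all genes, with a median of 0.02. All 6 Zscan4 genes, a cluster transcribed at the 2-cell stage, read higher by 1.42 to 1.59. Their mean was 15.82, 16.34 and 14.98 in rich embryos 5, 8 and 2, against 14.92, 13.61 and 14.18 in poor embryos 9, 7 and 1, so rich embryo 2 and poor embryo 9 nearly met, and middle embryo 3 was the lowest at 13.35. These copies share sequence and count as little more than 1 measurement. The 5 Usp17l genes, deubiquitinases of the same stage, read higher by 0.03 to 1.79. Obox6, a homeobox gene, read 10.40, 9.78 and 11.24 in rich embryos, against 11.40, 13.57 and 12.49 in poor ones, and Dppa4, a chromatin factor, 7.76, 8.89 and 9.09 against 10.24, 10.63 and 10.46.

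Cytoplasmic ribosomal protein genes read lower in rich embryos. Of 33 tested, 27 had a negative difference, the median was -0.54, and 10 were lower without overlap (30.3%, beside 10% of all genes) while 0 were higher. The list mean was 9.80, 9.72 and 9.63 in rich embryos 5, 8 and 2, against 9.63, 10.67 and 10.26 in poor embryos 9, 7 and 1. Poor embryo 9 therefore lay among the rich embryos and the median was -0.23 without embryo 7 and -0.82 without embryo 9. Middle embryos 3, 10 and 4 had list means of 10.26, 9.33 and 10.44, and embryo 10 was the lowest of all 9. The median was -0.61 in sisters a and -0.27 in sisters b. Rps9, of the small subunit, averaged 7.21 ± 0.13 in rich and 8.32 ± 0.39 in poor embryos, and Rpl35, of the large subunit, 13.14 and 14.23, and both separated all 12 blastomeres. Rpl39 averaged 8.37 in rich and 9.62 in poor embryos. Rpl31 (7.09 and 6.08) and Rpl7a (13.51 and 13.02) had the widest positive differences and overlapped. Rpl31 rested on embryo 8 (9.64), with a difference of -0.25 without it. The identifiers of both probe sets name chromosomes other than those of these genes. Their signals may therefore come from copies of the genes, which was not tested.

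Genes of the mitochondrion gave smaller medians. Nuclear-encoded subunits of the respiratory chain had a median of 0.18 over 68 genes, with 13 higher (19.1%) and 3 lower (4.41%) without overlap, beside 11.7% and 10% of all genes, but the median was -0.03 without embryo 5. Ndufc2, of complex I, averaged 9.98 in rich and 7.61 in poor embryos, and Cox6b1, of complex IV, 10.74 and 9.20, whereas Cox4i1 averaged 8.21 and 9.54 and overlapped. The 71 mitochondrial ribosomal protein genes had the same median of 0.18, with 12 higher (16.9%) and 5 lower (7.04%), beside the same 11.7% and 10%. The 6 genes measured from the mitochondrial genome itself had a median of -0.10, and ND6 read 14.33, 14.08 and 13.77 in rich embryos, against 14.93, 14.88 and 14.82 in poor ones. Proteasome subunits had a median of 0.31 over 32 genes, with 5 higher (15.6%) and 1 lower (3.12%) without overlap, beside 11.7% and 10% of all genes, and Psmd10 differed most (10.38 in rich and 7.34 in poor embryos). The proteasome median was -0.03 when embryos were ranked on sisters a and measured in sisters b.

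Among 51 mitotic and cell-cycle genes the median was 0.09, with 9 higher (17.6%) and 7 lower (13.7%) without overlap, beside 11.7% and 10% of all genes. Pttg1 (securin), which blocks chromatid separation, read 14.02, 13.76 and 13.62 in rich embryos 5, 8 and 2, against 12.46, 12.58 and 13.05 in poor embryos 9, 7 and 1, with no overlap among blastomeres. Wee1, the kinase that restrains entry into mitosis, read 6.74, 6.18 and 6.38 in rich embryos, against 7.61, 9.70 and 8.81 in poor ones, a difference of -2.27 ± 0.47 (SE; limma, adjusted p = 0.173). Medians of 52 splicing factors (-0.17) and 35 replication licensing genes (-0.09) were slightly negative. The 13 epiblast and pluripotency regulators above background, a kind of gene the study followed in these blastomeres, had a median of -0.14. Pou5f1 (Oct4) read 9.97, 10.12 and 10.22 in rich embryos 5, 8 and 2, against 9.38, 9.79 and 9.96 in poor embryos 9, 7 and 1, a narrow gap. Its blastomeres overlapped, with 11.01 in 5a and 8.94 in its sister 5b, which lay below every poor blastomere. Nr5a2, a nuclear receptor of the list, read 9.15, 9.49 and 8.81 in rich embryos, against 10.64, 10.63 and 9.81 in poor ones.

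The other lists held genes on both sides, and their shares are to be read beside the 11.7% of all genes higher and 10% lower without overlap. Among 30 translation initiation factors, 5 were higher and 5 lower without overlap (16.7% each way). Eif1b averaged 9.18 in rich and 7.73 in poor embryos and Eif2b1, of the exchange factor of eIF2, 12.51 and 11.10, whereas the eIF3 subunits Eif3m (6.58 and 8.64) and Eif3a (9.42 and 10.94) read lower. Among splicing factors, Sf3b3 averaged 10.01 in rich and 8.55 in poor embryos and Snrpa1 8.18 and 9.86, with 7 of the list higher and 9 lower without overlap. Among replication genes, Rpa3, of the single-strand binding complex, averaged 10.57 in rich and 9.46 in poor embryos and the helicase subunit Mcm4, which overlapped, 9.92 and 10.84.

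Of 24 histone variants and chaperones, 3 were higher (12.5%) and 2 lower (8.33%) without overlap, near the 11.7% and 10% of all genes. Besides H1f8, Set, a histone chaperone, averaged 11.60 in rich and 12.62 in poor embryos with all 12 blastomeres apart, and H2az2 averaged 10.84 and 12.29. Of 31 heat shock proteins and chaperones, 1 was higher and 3 were lower without overlap, with the chaperonin subunit Tcp1 at 7.18 and 8.36 in rich and poor embryos, whereas Hsph1 (9.54 and 10.55) overlapped. Of 26 stress, p53 and antioxidant genes, 3 were higher and 3 lower without overlap, with the peroxiredoxin Prdx4 at 10.24 in rich and 12.17 in poor embryos, whereas thioredoxin Txn1 (10.38 and 8.63) overlapped. Of 12 housekeeping genes, 1 was higher without overlap, Tbp at 10.56 and 9.74, the TATA-binding protein, and their median was 0.04, the same as that of all genes.

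**Figure D4:**
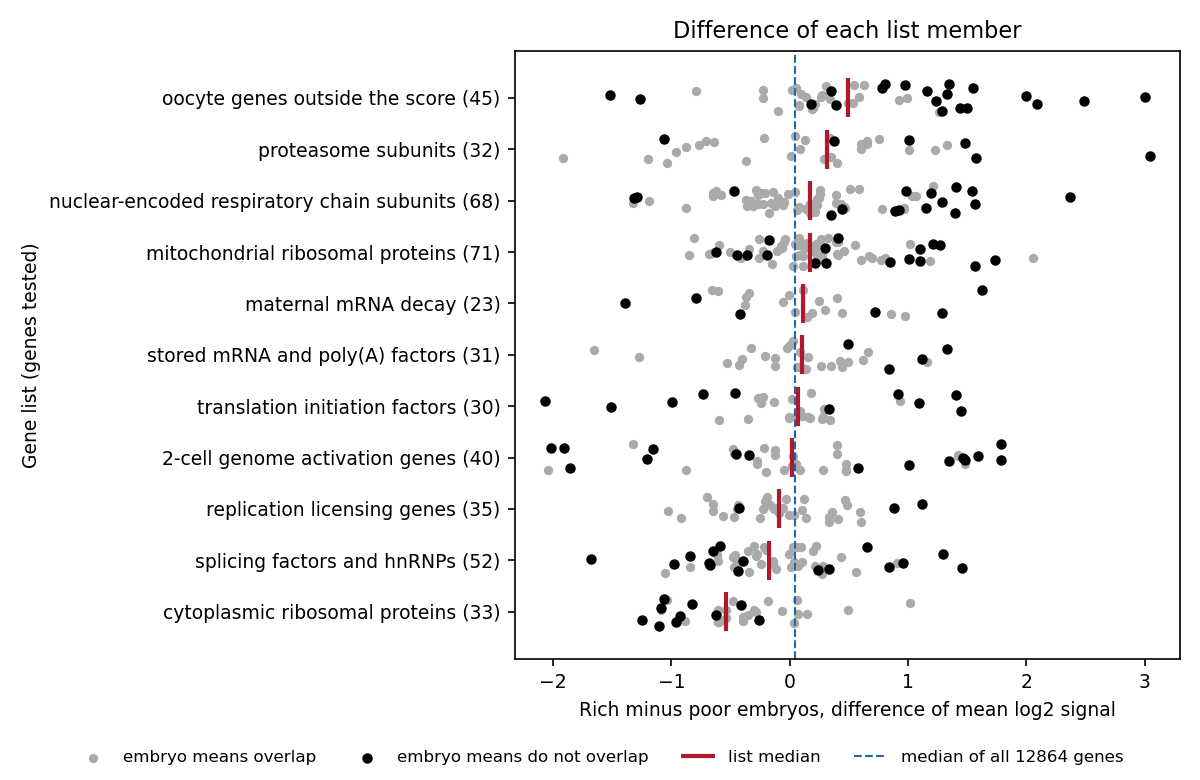
Difference of mean log2 signal, rich minus poor embryos, for each gene tested in 11 gene lists (black, the 3 rich and 3 poor embryo means do not overlap, grey, they overlap, red bar, list median, dashed line, median of all 12864 genes). Medians run from 0.49 for oocyte genes outside the score to -0.54 for cytoplasmic ribosomal proteins.

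The score genes were left out of the fit. Among the 12 named genes of smallest limma p that read higher in rich embryos, Zup1, a peptidase that cleaves ubiquitin chains, read 10.51, 11.21, 10.08, 9.87, 10.70 and 10.35 in blastomeres 5a, 5b, 8a, 8b, 2a and 2b, against 7.61, 7.97, 8.07, 6.75, 7.49 and 7.80 in 9a, 9b, 7a, 7b, 1a and 1b. No rich blastomere read below 9.87 and no poor one above 8.07. The difference was 2.84 ± 0.35 (SE; limma, adjusted p = 0.161). Cdk5, a cyclin-dependent kinase best known from neurons, read 11.30, 10.99 and 9.41 in rich embryos, against 7.35, 6.26 and 6.51 in poor ones, the widest difference of the 12 at 3.86.

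The others of the 12 were Nhej1, a factor of DNA end joining (2.28), Ippk, a kinase of inositol phosphates (2.06), Tdrd1, a tudor protein of the piRNA pathway (1.91), Mterf4, a factor of the mitochondrial ribosome (1.01), Copz1, a coatomer subunit (1.73), Zfp560 (1.78), the pseudogene Tmed10-ps (2.18), Uchl1 (1.35), Chga and Sap30, a subunit of the Sin3 deacetylase complex (1.04). Each value is rich minus poor on the log2 scale, and the adjusted p was 0.161 for all 12 in limma. Sap30 was among the brightest, at 16.80, 16.70 and 16.52 in rich embryos 5, 8 and 2, against 15.45, 15.67 and 15.77 in poor embryos 9, 7 and 1, and no blastomeres overlapped. Mterf4 was dim, with poor embryos close to the background level of 5.80. Chga exceeded that level on average in the rich embryos only (6.60, against 5.23 in poor ones), so it passed the filter through them and its place among the 12 says little.

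Of the 12 lower in rich embryos, Dhx9, an RNA helicase, read 10.13, 9.65, 11.16, 10.39, 9.81 and 11.02 in the rich blastomeres (in the same order), against 12.68, 12.21, 12.37, 11.89, 12.45 and 11.84 in the poor ones, a difference of -1.88 ± 0.33 (SE; limma, adjusted p = 0.161). Yy1, a zinc finger transcription factor found in most cells, read 9.16, 11.23, 10.21, 10.86, 10.45 and 11.49 in rich blastomeres, against 12.44, 12.22, 13.41, 13.02, 11.76 and 12.49 in poor ones. Both genes separated all 12 blastomeres, and the mean of the middle embryos lay between, at 10.91 for Dhx9 and 11.90 for Yy1, although single middle embryos reached the rich range for Dhx9 and the poor range for Yy1. Cd63, a tetraspanin of late endosomes, averaged 10.05 ± 1.08 in rich and 13.37 ± 0.78 in poor embryos. Tigar, a phosphatase of the glycolytic pathway, averaged 7.37 ± 0.59 and 9.77 ± 0.48.

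Gldc, the glycine decarboxylase, read 5.50, 5.45 and 5.70 in rich embryos 5, 8 and 2, against 7.16, 7.85 and 7.92 in poor embryos 9, 7 and 1. The rich embryos were below the background level of 5.80, so they had no measured level. Snord4a, a small nucleolar RNA, had the widest negative difference, -3.95, but its sisters disagreed, at 3.71 in 8a and 10.14 in 8b, and the blastomeres overlapped. The remaining 6 were Rpl7l1 (-1.98), Pramel1 (-0.75), Ppp1r15b, which directs dephosphorylation of the initiation factor eIF2 alpha (-1.60), Adsl of purine synthesis (-1.54), Atf7ip2 (-1.58) and Rab20, a small GTPase of endosomes (-2.49), and in limma their adjusted p was 0.161 or 0.173. For Pramel1 the rich embryos were close to the background level, at 5.865 on average.

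**Figure D5:**
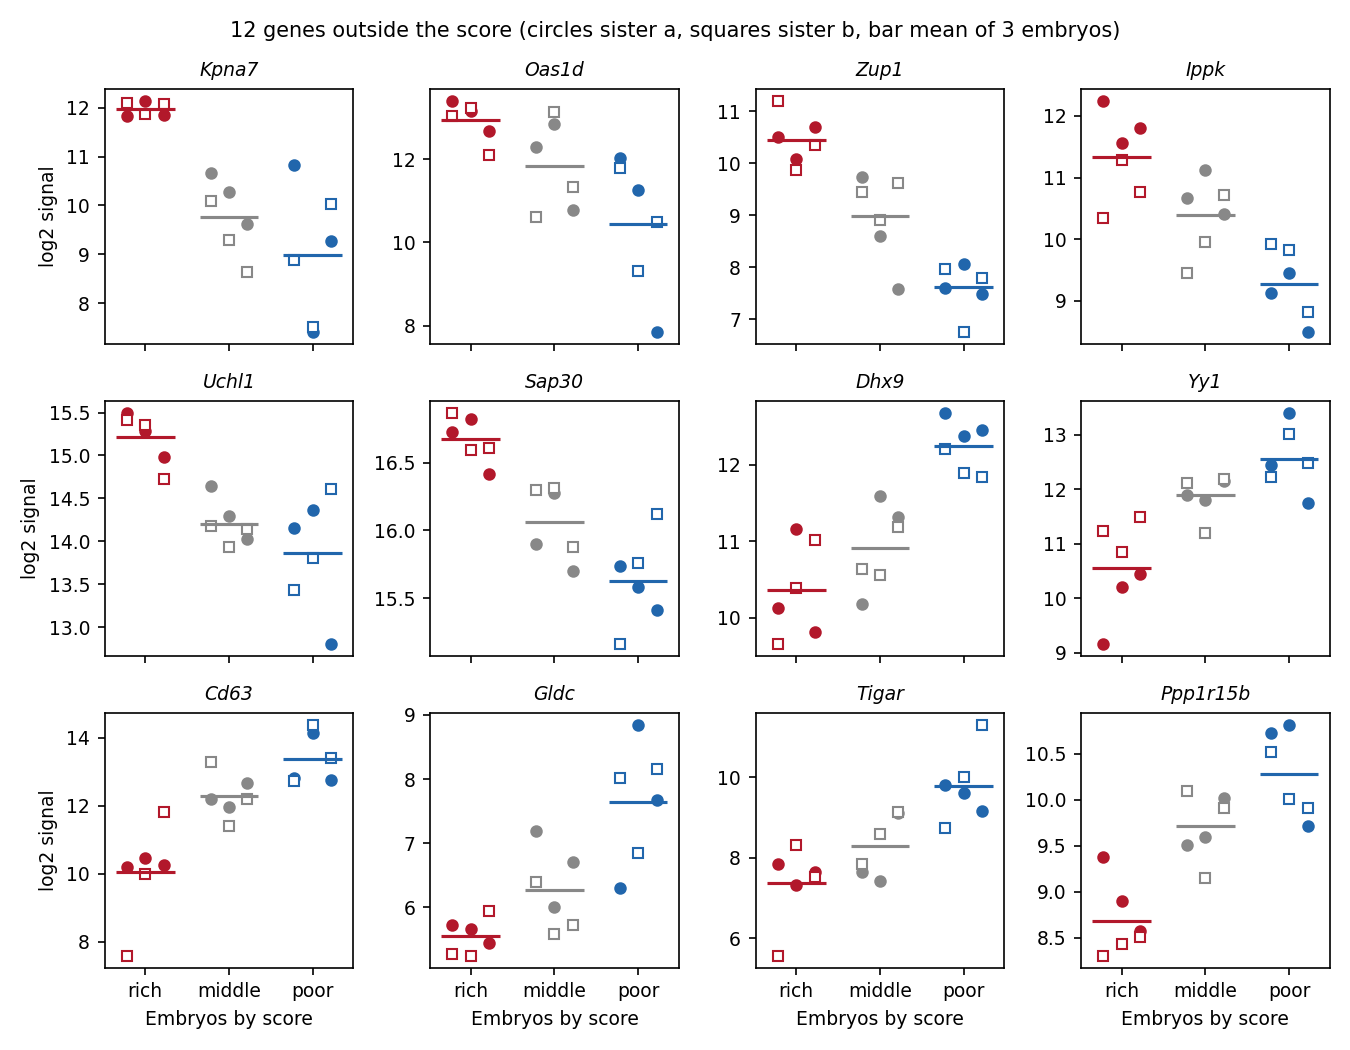
Log2 signal of 12 genes outside the score in the 18 blastomeres (circles, sister a, squares, sister b, one column of points per embryo) by position of the embryo in the score, with the mean of 3 embryos as a bar and an axis of its own in each panel. Kpna7 to Sap30 read higher in rich embryos and Dhx9 to Ppp1r15b lower, and the middle embryos average between them.

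By type of gene, shares are to be read beside the 11.7% of all genes higher and 10% lower without overlap. Protein-coding genes were more often higher than lower (13.4% and 9.23% of 8642), and small nucleolar RNA and miRNA genes the reverse. Of 427 small nuclear RNA genes, 11 were higher (2.58%) and 32 lower (7.49%), both below the shares of all genes, with a median of 0.19. Of 332 small nucleolar RNA genes, 6 were higher (1.81%) and 56 lower (16.9%), with a median of -0.15, and of 209 miRNA genes 15 were higher (7.18%) and 52 lower (24.9%), with a median of -0.09. Dim genes leaned the same way, since 6.44% of the dimmest 3216 were higher and 11.3% lower. Array medians were also lower in rich than in poor embryos (4.86 to 5.08 and 4.96 to 5.26), and the part of this offset in the small RNA values was not tested.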

How the data were processed

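Total RNA of single blastomeres was amplified with the WT Pico kit and hybridized to Affymetrix Mouse Transcriptome Array 1.0. The authors deposited log2 signals, made with Affymetrix Expression Console and its Transcriptome Analysis Console by signal space transformation robust multiarray averaging, which corrects background, normalizes between arrays and summarizes probes. The table held 65956 probe sets in 18 arrays, from 2.14 to 19.41. The platform annotation gave 1 symbol to 30638 probe sets, several to 2176 and none to 33142. Only probe sets with 1 symbol were named. Where a gene had several (354 genes), the brightest one on average stood for it, giving 30176 genes. Which genome build underlies the array design was not given in the sources used here, and no probe coordinates are printed.

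Genes were tested if their mean over all arrays exceeded 5.80, the 95th percentile over 1442 chemosensory receptor and Y-linked genes. This left 12881 genes, and 12864 without the score genes. Sry, a Y-linked gene that these embryos lack, still averaged 7.82 and was tested. It read 7.89 in rich and 7.70 in poor embryos, so a level above 5.80 does not show that a gene was expressed. Sisters were averaged, and limma 3.58.1 (R 4.3.3) was fitted to the 9 embryos in 3 classes (rich, middle, poor) with moderated variances and Benjamini-Hochberg adjustment over all genes tested. The fit was checked on simulated data with independent noise for each gene and classes fixed beforehand. That check does not cover the choice of classes from the same arrays. Because the classes were chosen from the same arrays, a p-value here describes how a gene varied with the score and is no test of a treatment. The number of arrays limits the precision.

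The members, the gene lists and the rule for named genes were chosen with earlier results of these data known. The rule took the 12 genes of smallest p in each direction among genes with a name other than a predicted-gene or receptor name (2 genes left out each way), and up to 2 members of each list with the widest positive and negative differences, of which the text describes most. Nobox, Nlrp9b, Nlrp9c, Dnmt1, Ybx3, Dppa4, Cox6b1, Rpl35 and the Zscan4 genes were named after their values were seen. Promoters came from the RefSeq table for GRCm38.p6, the first entry of each symbol, and 11 of 18 score genes had one. Promoters on chromosome 18 were left out of all motif counts. Alternatives were other filters, normalizations, sample sets, rankings of the embryos and models, given in the closing section. Figures were drawn with matplotlib 3.10.9.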

Additional observations from a re-analysis of the deposited data

Results flagged for a closer look

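Among the score, its 18 genes and the 24 named genes of smallest p, 2 genes had 1 embryo far from the other 8 by Dixon's criterion, and chance alone marks about 1 in 20 sets of values. Gdf9 read 8.63 in middle embryo 10, against 8.06 in the next highest, and its sisters 10a and 10b read 7.36 and 9.90. Nlrp5 read 11 in poor embryo 1, against 12.08 in the next lowest, with 10.55 in 1a and 11.45 in 1b. Leaving either gene out of the score gave the same rich and poor embryos.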

How the results depend on the processing

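With n = 3 embryos a side and limma, 0 genes passed in either direction. The count stayed at 0 in most of the 24 alternatives, including each fit without 1 embryo (0 to 0, with 1200 to 2004 genes at an unadjusted p under 0.05), with quantile normalization, median centring, no filter, 6 embryos only or no empirical Bayes. Other models called more genes, with 27 higher and 8 lower for the score as a number. With 18 arrays and the embryo as a random block the counts were 90 and 45. Adding the sister letter to that fit as a further term of the model gave 63 and 30. The last pair of fits counts sisters as partly separate samples (consensus correlation 0.169). Ranking on sisters a and measuring sisters b called 1 gene higher, Gm12633. The cause of these differences was not tested. The 24 genes of smallest p kept their direction in every alternative run, which their choice on this same contrast largely sets. Rich and poor embryos did not overlap for any of them, so leaving out 1 embryo could not reverse them. Of 2280 other values of named genes, 16 changed sign. Measured in sisters b after ranking on sisters a, Mrpl46 was 0.15, ND6 0.043, Tet1 0.35 and Pecam1 0.49. Measured in sisters a after ranking on sisters b, Rpl7a was -0.0067, COX2 -0.057 and Snap91 0.04. Wfdc2 was -0.014 after quantile normalization and Pecam1 0.105 with the score as a number. Leaving out 1 embryo gave -0.25 to 1.83 for Rpl31, -1.53 to 0.13 for Mrpl46, -0.069 to 0.31 for COX2, -0.03 to 0.24 for Wfdc2 and -0.79 to 0.11 for Pecam1. Of 529 list medians, 20 moved by more than the spread of embryos and 48, in 15 lists, changed sign, among them the respiratory chain (-0.03 without embryo 5) and the proteasome (-0.03 ranked on sisters a and measured in sisters b). The median stayed positive for oocyte genes outside the score (0.31 to 0.64) and negative for cytoplasmic ribosomal proteins (-0.82 to -0.23). Embryos were ranked again only in some alternatives. These were quantile normalization, median centring, ranking on sisters a or b, score genes scaled to SD 1, and Nlrp4f, Npm2 and Oosp1 alone. The rich embryos were the same in each of these, and the poor ones in all but the ranking on sisters a, where embryo 4 took the place of embryo 9. The other alternatives kept the classes of the main fit, less any embryo left out.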
